A study of Mus musculus with 27 samples.

Results

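The comparison described here set hepatic stellate cells collected 24 h after the last of 8 carbon tetrachloride (CCl4) injections, given over 4 weeks, against stellate cells collected 24 h after 1 injection. The hour after injection and the dose, 0.5 µL per g body weight in mineral oil into the peritoneum, were the same. By their labels, 4 libraries were chronic 24 h and 3 were acute 24 h, 7 of the 27 RNA-seq libraries of the series, and all genes were compared. All mice were male Balb/c without any transgene. Acute mice were 10 to 12 weeks old when injected and chronic mice were 8 to 10 weeks old at the start of the 4 weeks, so age at collection differed with the number of injections and the 2 cannot be told apart. Livers were perfused and stellate cells were sorted on their ultraviolet fluorescence, and RNA was taken without culture. The 4 untreated (healthy) libraries, from mice aged 10 to 12 weeks, are given as the background level, and chronic 72 h (4 libraries) and acute 72 h (4 libraries) serve as a later comparison of the same kind that shares no library with the one at 24 h. According to the study, each repeat was an individual experiment.

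Stellate cells are the vitamin A-storing pericytes of the liver sinusoid, and the droplets of retinyl ester are what the sort detects. In a healthy liver they are quiescent. After hepatocyte injury they activate: they lose their storage and pericyte genes, divide, contract and lay down collagen. CCl4 is turned into a radical by cytochrome P450 enzymes of the central hepatocytes and kills them. A single dose heals within days, while repeated doses lead to scar tissue, so the comparison at a fixed hour asks what a stellate cell does after a further injury that it did not do after a single one.

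The chronic 24 h libraries held 6.95 to 13.05 M counts, with replicates 1 and 2 below 9 M. The acute 24 h libraries held 11.8 to 12.3 M. Mitochondrial transcripts took 0.738 to 0.931% of counts in chronic 24 h and 1.01 to 1.31% in acute 24 h. Over log2 CPM (counts per M counts of the library), libraries of the same group correlated at Pearson's r of 0.911 to 0.960 and libraries of different groups at 0.872 to 0.902. The first principal component held 52.2% of the variance of the 500 most variable genes and separated the groups. Levels below are CPM in each library, listed as replicates 1 to 3 of acute 24 h and 1 to 4 of chronic 24 h. Each log2 fold change is chronic minus acute, ± its standard error (SE). The SE was taken as the absolute log2 fold change divided by the square root of the F statistic of its test. Adjusted p-values are from the quasi-likelihood test of edgeR with Benjamini-Hochberg adjustment over 18758 genes. A gene was called higher or lower at an adjusted p below 0.05 with more than a 2-fold change.

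All 15 stellate cell markers, Lrat, Des, Reln, Lum and Hand2 among them, were detected in both groups. Their summed level was 28428 to 40822 CPM in acute 24 h, 21991 to 25580 CPM in chronic 24 h and 35868 to 55796 CPM in healthy libraries. The chronic libraries were thus all below the acute ones in this sum, in which Dcn weighed most. By gene, 8 markers were lower and 2 (Pdgfrb and Lum) higher in every chronic library than in every acute one. Over all 18758 genes tested, 3024 were lower and 3212 higher in this way. Of the 15 markers, 1 was called higher (Pdgfrb, the PDGF-BB receptor, 1.20 ± 0.25) and 3 lower (Ecm1, Hgf and Rgs5), with a median log2 fold change of -0.49. Lrat, the enzyme that esterifies retinol for storage, was at 1304, 1079 and 1067 CPM in acute 24 h and 1284, 974, 1003 and 1088 CPM in chronic 24 h, with overlapping groups (log2 fold change -0.081 ± 0.34, adjusted p = 0.900).

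Markers of other cell types moved with the comparison. Their calls are to be read beside the 10.9% higher and 3.05% lower of all genes. The 17 pan-macrophage markers (Cd68, Adgre1, Csf1r and C1qa among them) summed to 264, 288 and 184 CPM in acute 24 h and to 4054, 5412, 962 and 1790 CPM in chronic 24 h, against 169 to 606 CPM in healthy libraries. All 17 were called higher. None of them was at 0 in either group, and the 2 shallow chronic libraries were the ones with most macrophage and hepatocyte transcripts. The 25 hepatocyte markers summed to 201 to 549 CPM in acute 24 h, 961 to 3712 CPM in chronic 24 h and 984 to 7581 CPM in healthy libraries. The chronic libraries lay within the range of healthy ones or just below it, and the acute libraries lay under both. Of the 25, 13 were called higher, and Fabp1 and Hamp had no count in acute 24 h. The 7 MHC class II genes rose from 11.5 to 34.6 CPM to 114 to 932 CPM (7 called). The 7 B and plasma cell genes went from 1.56 to 2.94 CPM to 46.7 to 120.1 CPM (6 called). The T and NK cell genes went from 1.13 to 4.99 CPM to 12.98 to 42.7 CPM (7 of 11 tested were called). Of the 12 T and NK cell genes listed, Cd3d (not tested), Trbc1, Trbc2, Cd2, Nkg7 and Gzma had no acute count. Mesothelial and portal fibroblast genes, such as Thy1, Cd34 and Gas1, summed to 92.2 to 118 CPM in acute 24 h and 792 to 848 CPM in chronic 24 h (7 of 11 called). Sinusoidal endothelial genes overlapped, with 230.0 to 294 CPM against 112 to 354 CPM, and 4 of 15 were called higher and 1 lower. In bulk RNA, a change in the number of cells of a type and a change in RNA per cell cannot be told apart. The share of each result below that these cells hold was not tested directly. In a further fit, pan-macrophage and hepatocyte scores entered as terms for all genes. The pan-macrophage score ran from -2.50 to -1.88 in acute 24 h and from -0.17 to 1.91 in chronic 24 h. The hepatocyte score ran from -4.58 to -2.41 and from -1.65 to 0.59. The fit thus compared the groups at scores that their libraries did not share. A call lost in it does not tell which cells held a transcript. This fit ended the calls of 61 of the 148 called genes named below while leaving their sign. The calls of 3 more (Igfbp2, Oas3 and Pparg), whose sign turned, ended as well. Each of these genes is identified where it is described.

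**Figure D1:**
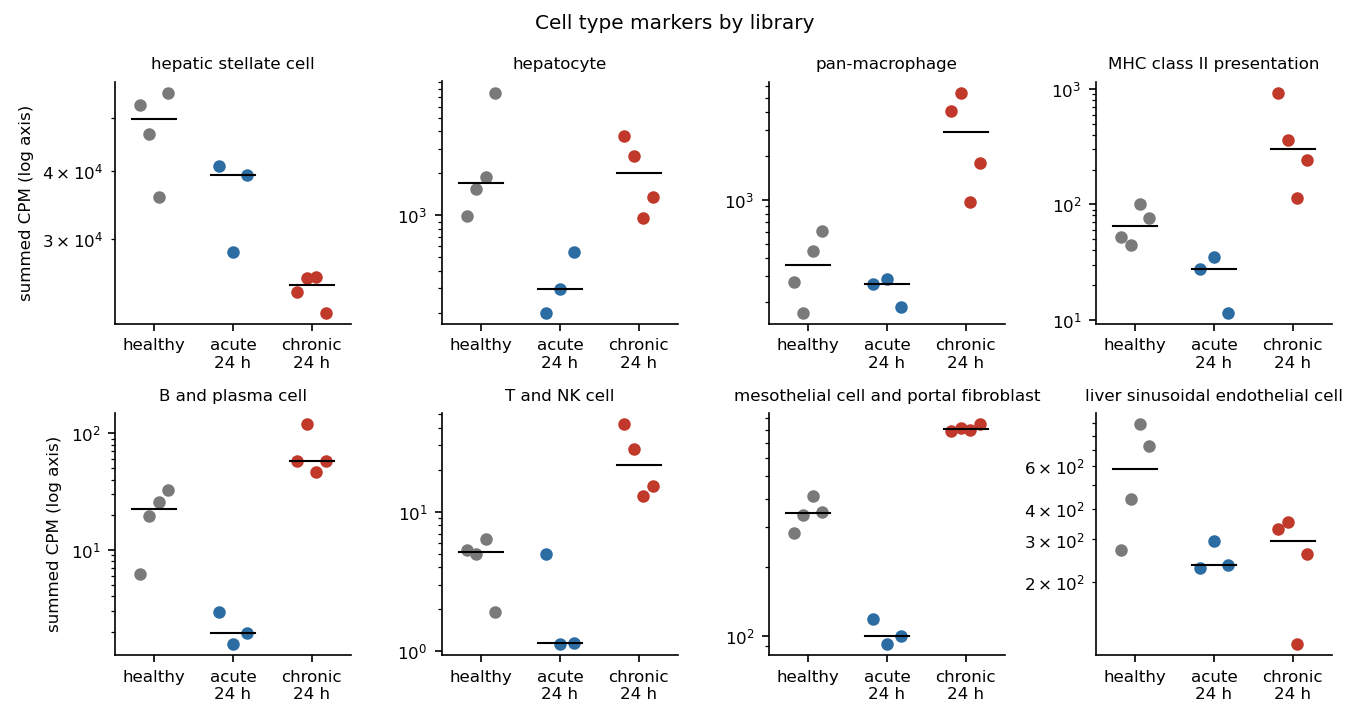
Summed CPM of the markers of 8 cell types in each library (log axis) for healthy, acute 24 h and chronic 24 h. Points are libraries and black bars are medians. Pan-macrophage markers lie at 962 to 5412 CPM in the chronic libraries and at or below 606 CPM in all others, and the sum of stellate cell markers is lowest in the chronic libraries.

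Of 18758 genes tested, 2036 (10.9%) were higher and 573 (3.05%) were lower 24 h after the repeated injury than 24 h after a single one. The median over all genes was 0.0055 on the log2 scale. The libraries of the groups did not overlap for 1791 of the higher and 549 of the lower genes. Over all genes tested, called or not, every chronic library was above every acute one for 3212 and below for 3024. Protein-coding genes made up 1906 of the higher and 439 of the lower. For 276 higher genes no acute library held more than 3 counts, and for 55 lower genes no chronic library did, so the fitted fold change of these genes has no fixed size. Leaving 1 library out at a time gave 1508 to 2069 higher and 418 to 642 lower genes. With the pan-macrophage and hepatocyte scores as terms, 1293 genes were higher and 574 lower.

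Among genes of at least moderate level (mean log2 CPM of 3 or more), Gpnmb, a membrane glycoprotein of lipid-laden macrophages and other cells, differed most. It was at 2.40, 1.39 and 0.966 CPM in acute 24 h and 556, 933, 86.1 and 100.2 CPM in chronic 24 h (log2 fold change 8.03 ± 1.15, adjusted p = 3.14e-05). With the scores as terms its log2 fold change was 3.91, adjusted p = 0.0437. The chronic replicates 1 and 2, which held the most macrophage transcripts, were also the highest for Gpnmb. Nrep, a small protein linked to TGF-β and myofibroblast conversion, stood at 2.14, 0.694 and 0.615 CPM in acute 24 h and 80.8, 148, 287 and 239.9 CPM in chronic 24 h (log2 fold change 7.35 ± 0.82, adjusted p = 1.26e-06), and here chronic replicates 3 and 4 were the highest. Ltbp2, a latent TGF-β binding protein family member of elastic fibres, was at 5.96, 1.65 and 2.98 CPM in acute 24 h and 179.6, 185, 363 and 398 CPM in chronic 24 h (log2 fold change 6.31 ± 0.64, adjusted p = 3.84e-07). Their log2 fold changes with the scores as terms were 7.81 for Nrep and 7.36 for Ltbp2, not below the values without them.

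Other genes among the 12 highest were as follows. Fbln2, the matrix protein fibulin 2, was at 5.07, 2.26 and 2.90 CPM in acute 24 h and 85.4, 161, 253 and 323 CPM in chronic 24 h (log2 fold change 5.91 ± 0.64). Serpine2, an inhibitor of thrombin and plasminogen activators, was at 6.86, 4.08 and 2.55 CPM in acute 24 h and 105, 139, 397 and 322 CPM in chronic 24 h (5.74 ± 0.68). Ncam1, a neural cell adhesion molecule, was at 4.81, 3.21 and 2.46 CPM in acute 24 h and 94.1, 106, 257 and 202 CPM in chronic 24 h (5.56 ± 0.50). For each of the 3, every chronic library lay well above every acute one, and chronic replicates 3 and 4 were the highest. Fndc5, the precursor of irisin, was at 1.16, 0.868 and 1.32 CPM in acute 24 h and 68.4, 37.1, 41.7 and 35.3 CPM in chronic 24 h (5.34 ± 0.51). Cd83, an activation marker of dendritic and B cells, was at 97.7, 351, 54.2 and 123 CPM in chronic 24 h and 4.18, 3.73 and 3.34 CPM in acute 24 h (5.38 ± 0.70). Ighm, the heavy chain of IgM, rose by 6.10 ± 0.83 with chronic replicate 2 highest at 93.1 CPM. The hepatocyte genes Apcs (serum amyloid P, 5.96 ± 0.98) and Uox (urate oxidase, 5.12 ± 0.93) were higher, as were 13 of 25 hepatocyte markers. Apcs and Uox kept their calls with the scores as terms, where 1 of the 25 markers was called higher and 3 lower. Uox in the chronic libraries was no higher than in healthy ones (chronic 61.6 ± 36.0 CPM, SD, n = 4; healthy 111 ± 122 CPM, SD, n = 4).

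**Figure D2:**
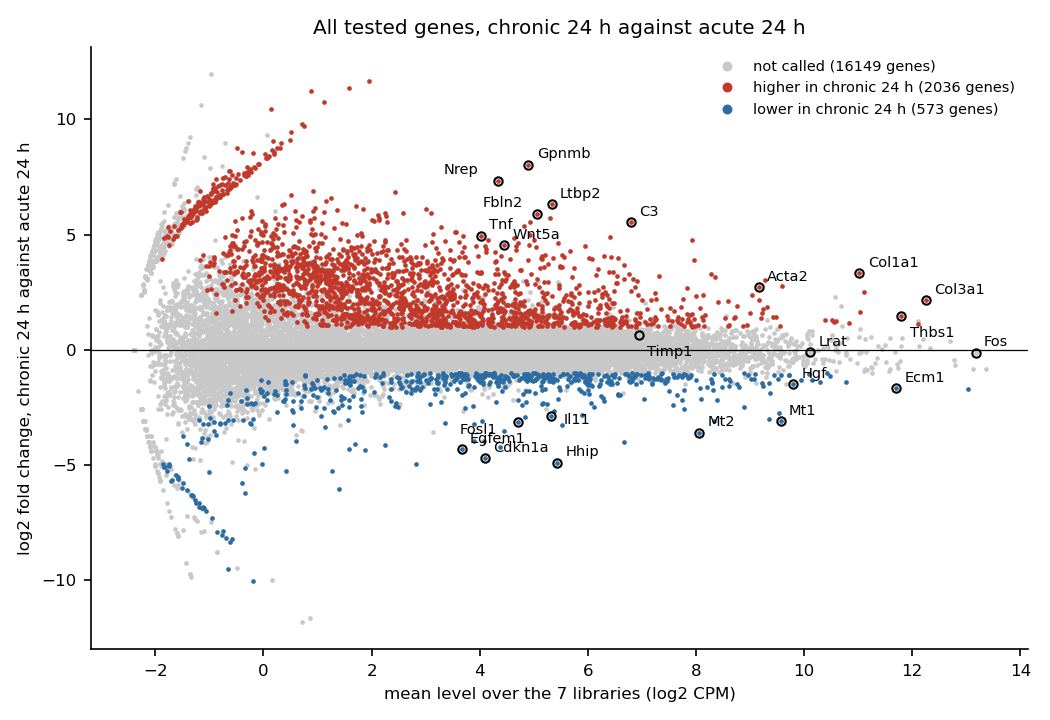
Mean level (log2 CPM over the 7 libraries) and log2 fold change of chronic 24 h against acute 24 h for all tested genes. Red marks the 2036 genes called higher and blue the 573 called lower; circled genes are named in the text. The higher genes reach from Col3a1 among the most abundant to genes with few or no acute counts.

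Among the lists of gene function, collagen chains had the largest share of members that rose. Of 26 collagen chains tested, 18 (69.2%) were called higher and 0 lower, beside 10.9% and 3.05% of all genes. Their median log2 fold change was 1.91 (1.83 with genes under the counting floor set to their bound). Col1a1 (chr11:94936224-94953042 on GRCm38), the first chain of type I collagen, was at 616, 528 and 551 CPM in acute 24 h and 3987, 5779, 6302 and 6524 CPM in chronic 24 h (log2 fold change 3.32 ± 0.41, adjusted p = 4.68e-06). In healthy cells it was at 230.4 ± 74.9 CPM (SD, n = 4). Its partner chain Col1a2 was at 953, 729 and 795 CPM in acute 24 h and 3618, 4206, 6094 and 4909 CPM in chronic 24 h (log2 fold change 2.51 ± 0.30, adjusted p = 2.12e-06). For both chains the lowest chronic library was more abundant than the highest acute library. Relative to healthy cells, Col1a2 lay at a log2 fold change of -0.34 in acute 24 h and 2.17 in chronic 24 h, and Col1a1 at 1.29 and 4.62.

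Type III, VI and VIII chains moved in the same direction. Col3a1, which forms the fine reticular fibres, was at 2731, 1518 and 2063 CPM in acute 24 h and 8335, 9561, 11153 and 8744 CPM in chronic 24 h (log2 fold change 2.17 ± 0.28, adjusted p = 8.83e-06). Col6a3, a chain of the beaded pericellular filament, was at 228, 140.4 and 197 CPM in acute 24 h and 1276, 1441, 1828 and 1703 CPM in chronic 24 h (log2 fold change 3.05 ± 0.34, adjusted p = 1.32e-06). In acute 24 h Col6a3 lay below its healthy level of 385 ± 85.6 CPM (SD, n = 4) and in chronic 24 h above it. Col8a2 rose from 2.14, 2.69 and 1.67 to 66.4, 43.8, 41.8 and 42.4 CPM (4.48 ± 0.43). The basement membrane-associated Col15a1 rose from 7.39, 2.17 and 3.60 to 99.7, 151, 152 and 157 CPM (4.99 ± 0.46), with chronic replicate 1 the lowest. Col4a5, a minor basement membrane chain, had 0.623, 0 and 0.351 CPM in acute 24 h and 20.7, 24.3, 64.4 and 47.0 CPM in chronic 24 h. Col28a1 had no count in acute 24 h and at most 1.20 CPM in chronic 24 h, at least 2.65-fold higher over a floor of 3 counts per acute library. The call of Col28a1 was lost without any 1 of the acute libraries, without chronic replicate 1 or 4, with the replicate block, in libraries of at least 10 M counts and with the scores as terms. The main basement membrane chain Col4a1 did not pass the test, with 3909, 2616 and 4118 CPM in acute 24 h and 2059, 2550.2, 3829.7 and 4747 CPM in chronic 24 h (log2 fold change -0.11 ± 0.26, adjusted p = 0.816). In each group it lay above the healthy level of 919.5 ± 139 CPM (SD, n = 4). With the scores as terms, 16 of the 26 chains were higher and 1 lower. With chronic libraries of at least 10 M counts alone, 16 were higher and 0 lower.

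Of 30 enzymes and other proteins that modify, export and crosslink collagen, 4 (13.3%) were higher and 1 (3.33%) lower, with a median of 0.44. These shares are near the 10.9% and 3.05% of all genes. Lox, the copper enzyme that starts collagen crosslinks, was at 176, 68.6 and 120.1 CPM in acute 24 h and 276, 412, 1051 and 786 CPM in chronic 24 h (log2 fold change 2.38 ± 0.49, adjusted p = 0.00114). The 4 chronic libraries were above the 3 acute ones, and replicates 3 and 4 above replicates 1 and 2. Loxl1 (1.05 ± 0.26) and the cargo receptor Kdelr3 (1.05 ± 0.28) were just past 2-fold and lost the call when single libraries were left out. These were acute replicate 3 or chronic replicate 1 for Loxl1 (range 0.96 to 1.16) and chronic replicate 3 or 4 for Kdelr3 (range 0.91 to 1.22). P4ha3, a prolyl hydroxylase subunit, was at 0.801, 0.260 and 0 CPM in acute 24 h and 1.20, 2.61, 4.38 and 4.32 CPM in chronic 24 h. It lost its call without acute replicate 2 or 3 or chronic replicate 2, 3 or 4 (range 2.56 to 4.48). Loxl4 was lower, at 92.3, 78.4 and 94.4 CPM in acute 24 h and 36.1, 35.4, 39.9 and 52.8 CPM in chronic 24 h (log2 fold change -1.10 ± 0.24, adjusted p = 0.00199). In libraries of at least 10 M counts Loxl1 (0.89) and Loxl4 (-0.96) were not called. Loxl1, Loxl4 and P4ha3 were not called with the scores as terms either, at 0.91, -0.36 and 4.43, nor were Loxl1, Kdelr3 and P4ha3 without a filter on low counts or P4ha3 with the replicate block.

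Of 48 matrix glycoproteins and proteoglycans, 21 (43.75%) were higher and 1 (2.08%) was lower, beside 10.9% and 3.05% of all genes. The median was 1.06, or 0.92 with genes at their bound. Fn1, fibronectin, was at 346, 229.9 and 168 CPM in acute 24 h and 1069, 1149.9, 1111 and 1125 CPM in chronic 24 h (log2 fold change 2.17 ± 0.33, adjusted p = 6.04e-05). The acute libraries all lay below the chronic ones. Tnc, tenascin C of provisional matrix, was at 371, 122 and 327 CPM in acute 24 h and 1282, 1693, 2453 and 2079 CPM in chronic 24 h (log2 fold change 2.78 ± 0.45, adjusted p = 9.21e-05). In healthy cells Tnc was at 28.1 ± 11.2 CPM (SD, n = 4), so the acute libraries lay above the healthy ones and the chronic libraries above both. Thbs1, a thrombospondin that can activate latent TGF-β, followed the same order with 2162, 1324 and 2709 CPM in acute 24 h and 4111, 4962, 6723 and 6968 CPM in chronic 24 h (log2 fold change 1.46 ± 0.35, adjusted p = 0.00404), with 98.1 ± 30.4 CPM (SD, n = 4) in healthy cells. Fmod, a small proteoglycan that binds fibrils, and the elastic fibre protein Mfap4 had log2 fold changes of 4.11 ± 0.63 and 4.55 ± 0.79. Of the hyaluronan synthases, Has1 was at 21.6, 25.1 and 11.2 CPM in acute 24 h and 93.8, 112, 110.0 and 87.9 CPM in chronic 24 h (log2 fold change 2.39 ± 0.50, adjusted p = 0.00145), and 1.08, adjusted p = 0.377 with the scores as terms. Has2 was at 0, 0.260 and 0 CPM in acute 24 h and 2.25, 6.73, 11.5 and 5.20 CPM in chronic 24 h and was not called with the scores as terms. Ccn5, a matricellular protein that lacks the C-terminal domain of its family, was at 2.40, 2.43 and 1.93 CPM in acute 24 h and 24.7, 17.3, 26.1 and 25.2 CPM in chronic 24 h (log2 fold change 3.37 ± 0.52, adjusted p = 5.95e-05).

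Other matrix genes did not pass the test. Vcan, the proteoglycan versican, was at 67.2, 33.2 and 45.7 CPM in acute 24 h and 82.3, 69.6, 60.9 and 48.6 CPM in chronic 24 h (log2 fold change 0.42 ± 0.36, adjusted p = 0.436). Its healthy level was 2.20 ± 1.20 CPM (SD, n = 4). Ccn2, a matricellular target of YAP and TGF-β, was at 5505, 3241 and 4819 CPM in acute 24 h and 1721, 2331, 5854 and 3165 CPM in chronic 24 h (log2 fold change -0.47 ± 0.84, adjusted p = 0.740). Chronic replicate 3 was above and the other chronic libraries were below all acute ones. Ecm1, a secreted protein of quiescent stellate cells that holds TGF-β latent, was the 1 member that was lower, at 7388, 3991 and 8624 CPM in acute 24 h and 1901, 2854, 1952 and 1738 CPM in chronic 24 h (log2 fold change -1.66 ± 0.33, adjusted p = 8.73e-04).

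Of 34 matrix proteases and their inhibitors, 18 (52.9%) were higher and 0 lower, beside 10.9% and 3.05% of all genes. The median was 1.35. Mmp2, the gelatinase A of mesenchymal cells, was at 122, 92.8 and 70.0 CPM in acute 24 h and 929.5, 936, 842 and 711 CPM in chronic 24 h (log2 fold change 3.17 ± 0.27, adjusted p = 5.80e-08). The healthy level of 365 ± 73.4 CPM (SD, n = 4) lay between the groups. Timp2, the inhibitor that also assists Mmp2 activation, was at 805, 765 and 844 CPM in acute 24 h and 1655, 1591, 2397 and 2300.0 CPM in chronic 24 h (log2 fold change 1.30 ± 0.20, adjusted p = 4.52e-05). The 3 proteases known from macrophages, Mmp12 (4.87 ± 0.85), Adam8 (4.53 ± 0.65) and the collagenase Mmp13 (3.94 ± 0.67), were highest in chronic replicates 1 and 2. None was called with the scores as terms, at 2.11, 1.88 and 1.07. Timp1, the main inhibitor of scar degradation, was at 102, 93.1 and 91.0 CPM in acute 24 h and 172, 128, 152 and 143 CPM in chronic 24 h against 0.633 ± 0.731 CPM (SD, n = 4) in healthy cells. The chronic libraries were all above the acute ones, by little, and the gene did not pass the test (log2 fold change 0.64 ± 0.85, adjusted p = 0.636). This SE rests on all 27 libraries and is wider than the spread within either group. The stromelysin Mmp3 overlapped between the groups at 100.4, 68.5 and 77.4 CPM in acute 24 h and 18.9, 34.3, 50.9 and 99.0 CPM in chronic 24 h (log2 fold change -0.69 ± 0.54, adjusted p = 0.394).

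**Figure D3:**
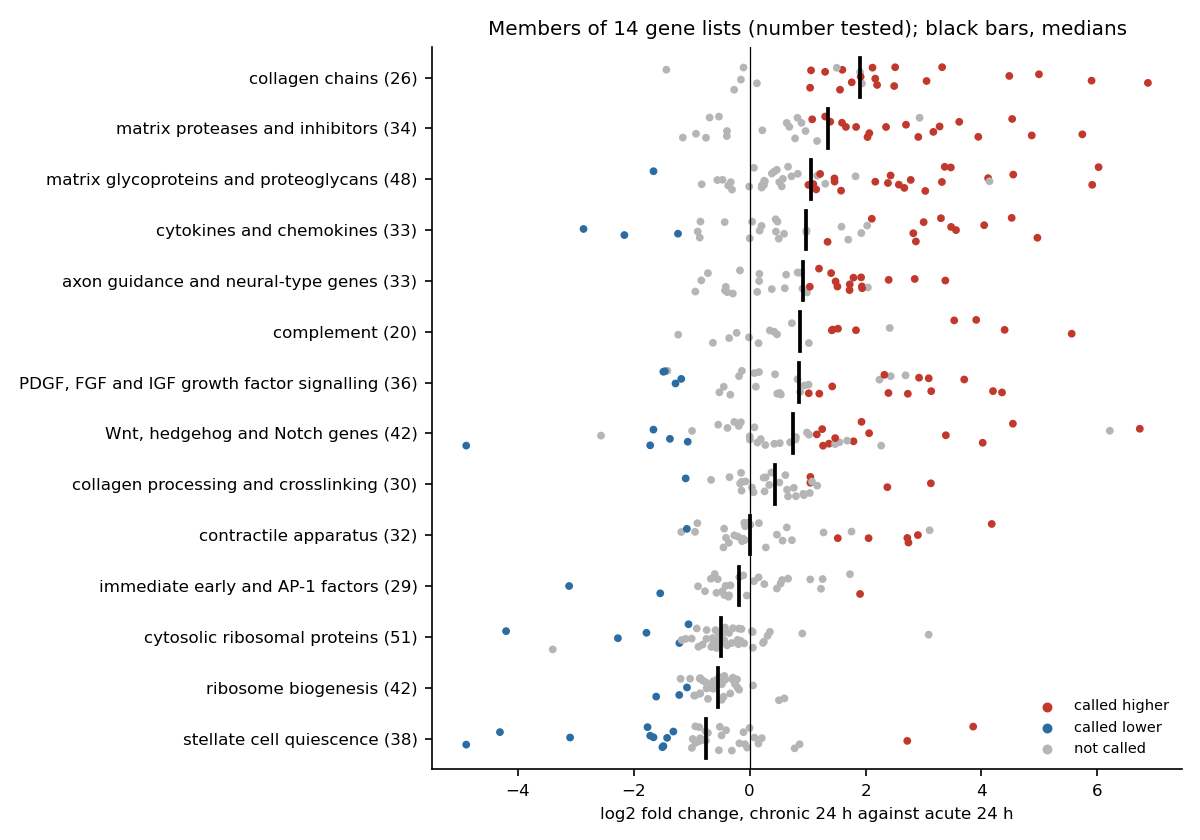
Log2 fold change of chronic 24 h against acute 24 h for the tested members of 14 gene lists, with the number tested in parentheses. Each point is a gene, red where called higher, blue where called lower and grey where not called, and black bars are medians. Collagen chains have the highest median, 1.91, and stellate cell quiescence genes the lowest, -0.76.

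The contractile apparatus, a hallmark of the myofibroblast, was divided. Of 32 genes, 6 (18.75%) were higher and 1 (3.125%) lower, beside 10.9% and 3.05% of all genes, and the median was -0.0022. Acta2 (chr19:34241090-34255590), α-smooth muscle actin, was at 301, 253 and 149.5 CPM in acute 24 h and 289, 1055, 2272 and 2563 CPM in chronic 24 h (log2 fold change 2.72 ± 0.81, adjusted p = 0.0183). Its healthy level was 3.13 ± 2.69 CPM (SD, n = 4). Chronic replicate 1 lay among the acute libraries while replicates 3 and 4 were far above them. The call was lost without acute replicate 2 or 3, without chronic replicate 4 (log2 fold change range 2.29 to 3.07), without a filter on low counts and with the scores as terms (2.08, adjusted p = 0.324). Myh11, smooth muscle myosin heavy chain, was at 8.19, 4.51 and 9.22 CPM in acute 24 h and 10.9, 32.5, 73.9 and 101 CPM in chronic 24 h (log2 fold change 2.90 ± 0.54, adjusted p = 4.67e-04). The actin-binding Synpo2 was at 2.76, 2.17 and 1.67 CPM in acute 24 h and 14.2, 10.6, 18.3 and 15.8 CPM in chronic 24 h (log2 fold change 2.74 ± 0.32, adjusted p = 1.74e-06). Cnn1, calponin, was below 1 CPM in the acute libraries and at 1.20, 6.59, 3.51 and 10.6 CPM in the chronic ones (4.18 ± 1.09, and 3.20 without a call with the scores as terms). For Acta2, Myh11 and Cnn1 the order within chronic 24 h was alike, with replicate 1 lowest and replicate 4 highest. Tagln, an actin-bundling protein that also marks myofibroblasts, overlapped at 1408, 1834 and 1834 CPM in acute 24 h and 489, 1521, 1806 and 3011 CPM in chronic 24 h (log2 fold change 0.013 ± 0.49, adjusted p = 0.996). Pdlim7, an actin-anchoring LIM protein, was lower at -1.08 ± 0.25, without a call when acute or chronic replicate 1 was left out (range -1.32 to -0.80), in libraries of at least 10 M counts (-0.94), with a depth term or with the scores as terms (-1.08). Desmin (Des) did not pass the test (log2 fold change -0.44 ± 0.18, adjusted p = 0.0871).

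Serum response factor binds CArG boxes in promoters of contractile genes. The Acta2 promoter (chr19:34255324-34255623, minus strand, RefSeq on GRCm38.p6) is shown because Acta2 differed most between 24 h and 72 h among genes of moderate level, as given further on. It held 2 CArG boxes with at most 1 base off the motif, on either strand, which are in capitals. Such a match was found in 21.1% of 32851 promoter windows of the same length, 250 bases before to 50 after the start, and an exact match in 1.63%.
Acta2: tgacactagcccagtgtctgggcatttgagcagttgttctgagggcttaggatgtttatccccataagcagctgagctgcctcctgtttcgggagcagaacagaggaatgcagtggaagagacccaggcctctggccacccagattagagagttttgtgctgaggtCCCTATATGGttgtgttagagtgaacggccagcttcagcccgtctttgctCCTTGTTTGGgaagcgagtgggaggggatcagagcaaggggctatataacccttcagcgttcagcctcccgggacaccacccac

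Among TGF-β, activin and BMP genes, 7 of 49 (14.3%) were higher and 6 (12.2%) lower, with a median of 0.06, beside 10.9% and 3.05% of all genes. Of the ligands, Tgfb2 was at 8.01, 8.33 and 8.08 CPM in acute 24 h and 21.7, 35.0, 48.5 and 50.1 CPM in chronic 24 h (log2 fold change 2.25 ± 0.33, adjusted p = 3.36e-05). Tgfb3 was at 155, 86.2 and 169.5 CPM in acute 24 h and 299.8, 386, 587 and 643 CPM in chronic 24 h (log2 fold change 1.81 ± 0.30, adjusted p = 1.25e-04). For both ligands every chronic library was above every acute one. Tgfb1 lay the opposite way, at 316, 301 and 300.2 CPM in acute 24 h and 151, 176, 135 and 154 CPM in chronic 24 h, without overlap but just short of 2-fold (log2 fold change -0.99 ± 0.25, adjusted p = 0.00650). In libraries of at least 10 M counts (-1.11) and with the scores as terms (-1.52) it was called lower. Gdf6, a BMP family ligand, was at 23.5, 20.3 and 22.1 CPM in acute 24 h and 193, 207, 237 and 291 CPM in chronic 24 h (log2 fold change 3.40 ± 0.25, adjusted p = 7.38e-09). Inhba, the activin A subunit, was at 280.1, 199.9 and 324 CPM in acute 24 h and 44.4, 107, 174 and 153 CPM in chronic 24 h (log2 fold change -1.16 ± 0.31, adjusted p = 0.00933). It lost its call without acute replicate 3 or chronic replicate 1 (range -1.39 to -0.89), in the 7 libraries alone, with a depth term, in libraries of at least 10 M counts (-0.74) and with the scores as terms (-0.83). Bmp10, a ligand that stellate cells give to endothelium, was at 618, 409 and 723 CPM in acute 24 h and 122, 127, 331 and 311 CPM in chronic 24 h (log2 fold change -1.39 ± 0.34, adjusted p = 0.00509). It was not called in libraries of at least 10 M counts (-0.89) or with the scores as terms (-0.43). Id1, a direct BMP target, was at 81.6, 269.7 and 235 CPM in acute 24 h and 30.9, 35.3, 27.6 and 16.001 CPM in chronic 24 h (log2 fold change -2.83 ± 0.47, adjusted p = 1.27e-04). Id1 in chronic 24 h lay near its healthy level of 34.8 ± 16.4 CPM (SD, n = 4), and acute replicates 2 and 3 were far above it. The endothelial BMP receptor Acvrl1 was higher (2.96 ± 0.44), without a call once the scores were terms (1.60).

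Of 36 genes of PDGF, FGF, IGF and VEGF signalling, 12 (33.3%) were higher and 4 (11.1%) lower (median 0.85). Of all genes, 10.9% were higher and 3.05% lower. Pdgfrb was at 943, 779.8 and 1082 CPM in acute 24 h and 2342, 1978, 2018 and 2264 CPM in chronic 24 h (log2 fold change 1.20 ± 0.25, adjusted p = 0.00143). Its ligand Pdgfd was at 1.34, 1.04 and 1.67 CPM in acute 24 h and 14.5, 7.96, 12.9 and 12.2 CPM in chronic 24 h (log2 fold change 3.13 ± 0.38, adjusted p = 3.67e-06). The groups overlapped for neither receptor nor ligand. Igf1 was at 32.9, 17.4 and 22.8 CPM in acute 24 h and 391, 401, 271 and 206 CPM in chronic 24 h (log2 fold change 3.70 ± 0.72, adjusted p = 6.81e-04). The call of Igf1 was lost with the scores as terms (2.496). Igfbp4, which binds IGF1, was at 230.5, 237 and 156 CPM in acute 24 h and 1563, 1124, 887 and 802 CPM in chronic 24 h (log2 fold change 2.39 ± 0.29, adjusted p = 3.13e-06). Against healthy cells Igfbp4 had a log2 fold change of 0.064 in chronic 24 h and -2.33 in acute 24 h. Vegfd, a ligand for lymphatic endothelium, was at 1.78, 1.91 and 1.40 CPM in acute 24 h and 27.7, 30.5, 39.4 and 27.9 CPM in chronic 24 h (log2 fold change 4.20 ± 0.65, adjusted p = 6.50e-05). For Vegfa the log2 fold change was 1.42 ± 0.33. Igfbp2 was detected in 1 acute library and overlapped between groups. The log2 fold change of 4.35 for Igfbp2 (range 3.26 to 9.17, no call without acute replicate 1 or 2 or chronic replicate 1, in libraries of at least 10 M counts, in the 7 libraries alone or with a depth term) became -0.0059 with the scores as terms. Hgf, the hepatocyte growth factor, was lower at 1567, 1409 and 1961 CPM in acute 24 h and 433, 461, 742 and 708 CPM in chronic 24 h (log2 fold change -1.49 ± 0.29, adjusted p = 6.92e-04), and -0.48, adjusted p = 0.531 with the scores as terms.

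Wnt, hedgehog and Notch genes had 12 of 42 members (28.6%) higher and 5 (11.9%) lower, beside 10.9% and 3.05% of all genes. The median was 0.74, or 0.66 with genes at their bound. The non-canonical ligand Wnt5a was at 3.92, 3.12 and 3.78 CPM in acute 24 h and 67.8, 62.7, 99.4 and 107 CPM in chronic 24 h (log2 fold change 4.54 ± 0.45, adjusted p = 2.84e-07). Its receptor Fzd2 was at 3.47, 2.17 and 2.28 CPM in acute 24 h and 42.9, 41.5, 46.1 and 41.7 CPM in chronic 24 h (log2 fold change 4.02 ± 0.44, adjusted p = 9.15e-07). The secreted Wnt inhibitor Sfrp1 was at 8.64, 4.95 and 3.86 CPM in acute 24 h and 50.5, 52.6, 68.8 and 71.3 CPM in chronic 24 h (log2 fold change 3.39 ± 0.47, adjusted p = 1.98e-05). Sfrp2 had no count in acute 24 h and 0.600, 1.78, 1.14 and 1.44 CPM in chronic 24 h, at least 4.71-fold higher if 3 counts per acute library are taken as the floor. It was not called in libraries of at least 10 M counts or with the scores as terms. All 4 genes thus had every chronic library above every acute one. For Wnt5a, Fzd2 and Sfrp1 the acute libraries also lay below healthy cells, at log2 fold changes of -1.22, -1.43 and -2.68. The chronic ones lay at 3.32, 2.59 and 0.70.

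Axon guidance genes, which steer migrating cells outside the nervous system as well, had 14 of 33 members (42.4%) higher and 0 lower (median 0.91). Of all genes, 10.9% were higher and 3.05% lower. The semaphorin Sema5a was at 3.12, 3.47 and 2.81 CPM in acute 24 h and 9.44, 13.7, 18.2 and 24.6 CPM in chronic 24 h (log2 fold change 2.40 ± 0.37, adjusted p = 5.90e-05). Sema6a was at 3.38, 3.56 and 5.27 CPM in acute 24 h and 13.9, 17.6, 14.4 and 16.7 CPM in chronic 24 h (log2 fold change 1.94 ± 0.33, adjusted p = 1.79e-04). The semaphorin and VEGF co-receptor Nrp2 was at 3.56, 2.34 and 1.76 CPM in acute 24 h and 14.2, 17.0, 16.2 and 26.2 CPM in chronic 24 h (log2 fold change 2.85 ± 0.55, adjusted p = 6.65e-04). Sema6a was not called with the scores as terms (1.21). Unc5c, a netrin receptor, stayed below 2 CPM in every library, and its call was lost without acute replicate 2 or 3 or chronic replicate 1, in libraries of at least 10 M counts and with the scores as terms. The list's median against healthy cells was -1.10 in acute 24 h and 0.01 in chronic 24 h.

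Complement genes had 8 of 20 members (40.0%) higher and 0 lower (median 0.87), beside 10.9% and 3.05% of all genes. C3, the central component, was at 14.3, 7.64 and 16.6 CPM in acute 24 h and 943, 512, 429 and 537 CPM in chronic 24 h (log2 fold change 5.56 ± 0.63, adjusted p = 1.33e-06). C4b was at 56.2, 46.4 and 56.6 CPM in acute 24 h and 833, 636, 804 and 916 CPM in chronic 24 h (log2 fold change 3.91 ± 0.37, adjusted p = 1.68e-07). With the scores as terms the log2 fold changes were 4.56 and 3.75. C3ar1, the receptor for the C3a fragment that myeloid cells carry, went from a log2 fold change of 4.40 to 1.81 with the scores as terms. The factor Cfi went from 3.53 to 1.93, without a call. Cfi also lost its call without acute replicate 2 (range 2.95 to 5.99) and in libraries of at least 10 M counts (2.91).

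**Figure D4:**
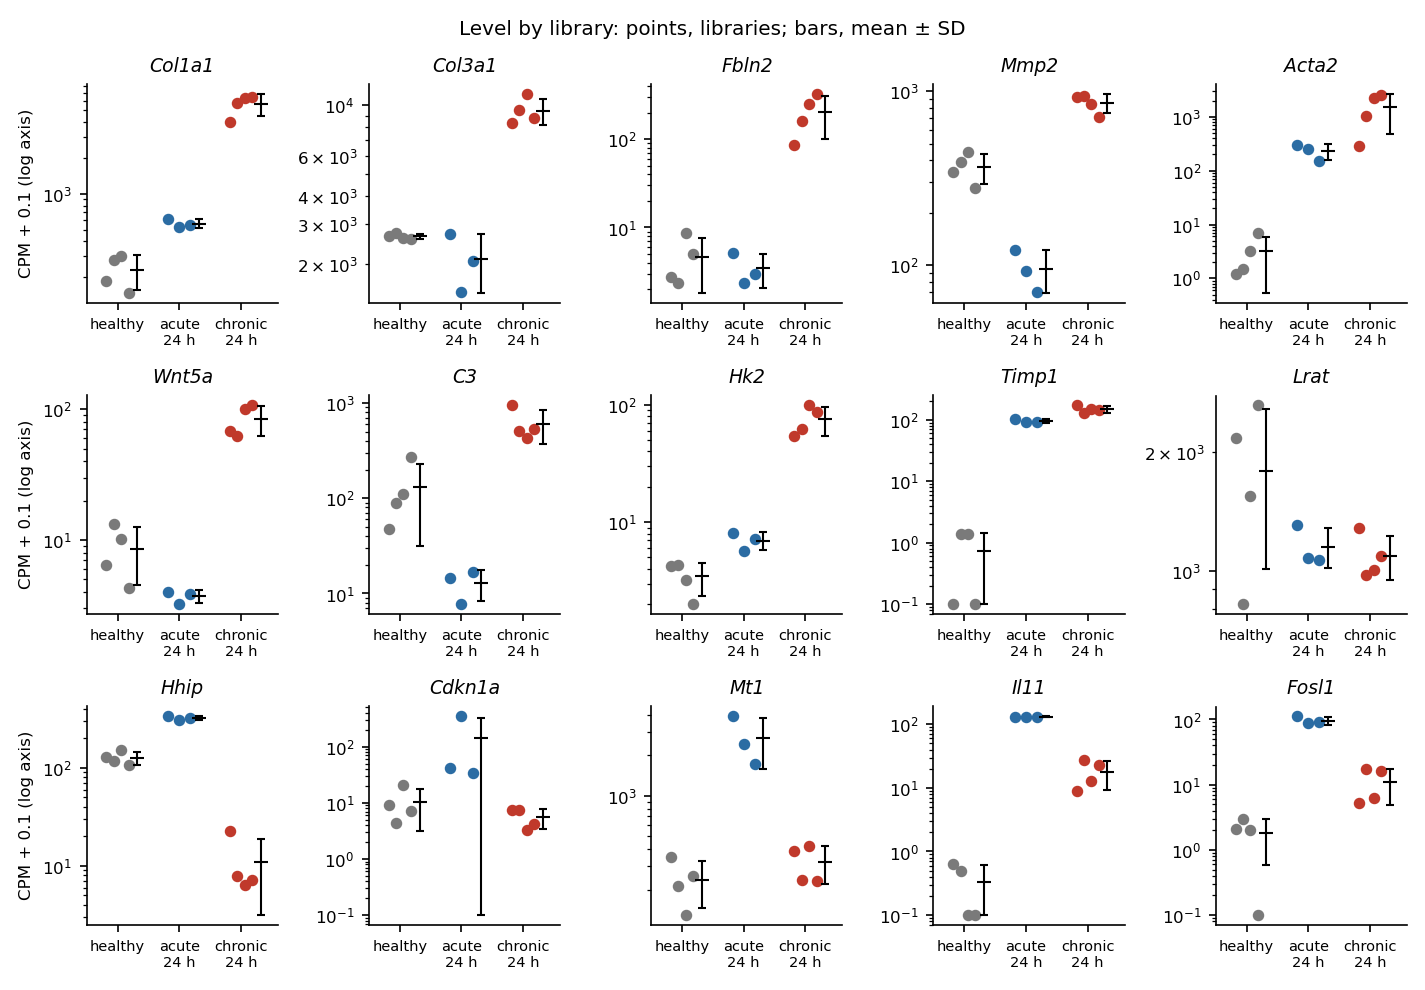
CPM of 15 genes in each healthy, acute 24 h and chronic 24 h library (log axis, 0.1 added so that 0 can be drawn). Points are libraries and bars are mean ± SD, drawn to the lower edge where the SD exceeds the mean. Col1a1, Fbln2, Mmp2, Wnt5a, C3 and Hk2 are higher in every chronic library than in every acute one. Hhip, Mt1, Il11 and Fosl1 are lower in every chronic library than in every acute one, and Lrat overlaps between these groups.

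Of 33 cytokines and chemokines, 11 (33.3%) were higher and 3 (9.09%) lower (median 0.98), beside 10.9% and 3.05% of all genes. Tnf was at 2.85, 3.91 and 1.23 CPM in acute 24 h and 87.5, 179, 25.3 and 42.2 CPM in chronic 24 h (log2 fold change 4.96 ± 0.87, adjusted p = 2.47e-04). Il1b was at 11.4, 15.4 and 4.92 CPM in acute 24 h and 173, 317, 82.7 and 127 CPM in chronic 24 h (log2 fold change 4.05 ± 0.67, adjusted p = 1.28e-04). Osm, an IL-6 family cytokine, was at 0.801, 0.347 and 0.439 CPM in acute 24 h and 14.2, 18.3, 5.79 and 11.4 CPM in chronic 24 h (log2 fold change 4.52 ± 0.68, adjusted p = 4.88e-05). The highest library for all 3 was chronic replicate 2, which also held the most pan-macrophage transcripts. With the scores as terms the log2 fold changes were 0.92, 0.71 and 2.69. None was called, and the median of the list turned to -0.42. Il1rn, the antagonist of IL-1, was not called either (4.93, and 2.84 with the scores). Cx3cl1, the fractalkine ligand for monocytes, kept its call, at 29.6, 39.6 and 41.2 CPM in acute 24 h and 296, 241, 304 and 339 CPM in chronic 24 h (log2 fold change 3.00 ± 0.26, adjusted p = 5.70e-08) and 2.96 with the scores. Ccl2, the monocyte attractant, overlapped at 32.6, 308 and 334 CPM in acute 24 h and 156, 757, 473 and 388 CPM in chronic 24 h (log2 fold change 0.98 ± 0.83, adjusted p = 0.438). Ccl5 stayed at or below 7.34 CPM, without a call when acute replicate 2 or 3 or chronic replicate 1 was left out (range 2.82 to 8.11), in the 7 libraries alone, with a depth term, in libraries of at least 10 M counts (2.65) or with the scores as terms (2.87). The eosinophil attractant Ccl11 was lower at 73.4, 74.0 and 51.7 CPM in acute 24 h and 24.4, 17.98, 11.8 and 5.52 CPM in chronic 24 h (log2 fold change -2.16 ± 0.47, adjusted p = 0.00189).

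Il11, a cytokine that fibroblasts make under TGF-β, was the gene of the cytokine list that fell most. It was at 132, 131 and 128 CPM in acute 24 h and 8.69, 27.7, 12.5 and 22.6 CPM in chronic 24 h (log2 fold change -2.87 ± 0.45, adjusted p = 7.80e-05). The healthy level was 0.233 ± 0.277 CPM (SD, n = 4), so the acute libraries were highest and agreed closely and the chronic ones lay between. Fosl1, the AP-1 subunit Fra-1, was at 111, 87.2 and 90.1 CPM in acute 24 h and 5.10, 17.0, 6.23 and 15.9 CPM in chronic 24 h (log2 fold change -3.12 ± 0.62, adjusted p = 9.07e-04), and at 1.69 ± 1.20 CPM (SD, n = 4) in healthy cells. Neither was called with the scores as terms, where the log2 fold changes were -2.28 and -3.18. Bdkrb2, the bradykinin receptor, had the same order, at 64.5, 67.2 and 86.0 CPM in acute 24 h and 3.15, 3.02, 5.96 and 6.16 CPM in chronic 24 h (log2 fold change -3.97 ± 0.62, adjusted p = 7.27e-05) and with a healthy level of 0.596 ± 0.569 CPM (SD, n = 4). Tnfrsf12a, the receptor for TWEAK, was at 394, 370.3 and 396 CPM in acute 24 h and 48.7, 101, 125 and 179 CPM in chronic 24 h (log2 fold change -1.77 ± 0.51, adjusted p = 0.0153). It lost its call in libraries of at least 10 M counts (-1.38, adjusted p = 0.196) and with a depth term. Neither Bdkrb2 (-2.58) nor Tnfrsf12a (-2.602) was called with the scores as terms.

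The Il11 promoter (chr7:4778092-4778391, minus strand, 1 of 2 windows listed for the gene, RefSeq on GRCm38.p6) is shown because Il11 and the AP-1 subunit Fosl1 fell together. AP-1 dimers bind TGAGTCA, and 1 match on either strand is in capitals. The motif was present in 5.20% of the 32851 windows.
Il11: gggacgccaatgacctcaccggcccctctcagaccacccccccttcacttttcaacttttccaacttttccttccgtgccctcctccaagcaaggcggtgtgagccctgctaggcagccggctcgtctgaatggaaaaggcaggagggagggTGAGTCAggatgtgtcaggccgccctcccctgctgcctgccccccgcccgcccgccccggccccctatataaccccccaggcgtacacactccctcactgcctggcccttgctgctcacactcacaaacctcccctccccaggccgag

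Of 29 immediate early and AP-1 genes tested, 1 (3.45%) was higher and 2 (6.90%) were lower, beside 10.9% and 3.05% of all genes. Fos was at 8747, 11888 and 8554 CPM in acute 24 h and 9478, 9114, 9075 and 8390.2 CPM in chronic 24 h (log2 fold change -0.11 ± 0.17, adjusted p = 0.703). This was close to the 9399 ± 650.0 CPM (SD, n = 4) of healthy cells. Myc overlapped (log2 fold change -0.049 ± 0.44, adjusted p = 0.960), as did Klf6 (log2 fold change 0.47 ± 0.31, adjusted p = 0.312). Ier3, an anti-apoptotic early gene, was lower at 1005, 1357 and 1085 CPM in acute 24 h and 240.1, 324, 525 and 488 CPM in chronic 24 h (log2 fold change -1.54 ± 0.32, adjusted p = 0.00124). Nr4a2, an orphan nuclear receptor, was higher at 46.0, 36.4 and 34.5 CPM in acute 24 h and 188, 161, 124 and 111 CPM in chronic 24 h (log2 fold change 1.90 ± 0.40, adjusted p = 0.00129). Ier3 (-1.51) and Nr4a2 (1.52) were not called with the scores as terms. Tnfaip3, which ends NF-κB signalling, was at 37.0, 62.4 and 45.9 CPM in acute 24 h and 197, 394, 219 and 214 CPM in chronic 24 h (log2 fold change 2.40 ± 0.40, adjusted p = 1.37e-04). Il4ra, the IL-4 receptor chain, was at 638, 507 and 431 CPM in acute 24 h and 238, 170.1, 131 and 138 CPM in chronic 24 h (log2 fold change -1.63 ± 0.25, adjusted p = 6.71e-05).

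Among genes of mean log2 CPM of 3 or more, the one with the largest fall was Hhip (chr8:79965851-80058006), a membrane protein that traps hedgehog ligands and is abundant in quiescent stellate cells. It was at 334, 309 and 322 CPM in acute 24 h and 22.8, 7.69, 6.23 and 7.12 CPM in chronic 24 h (log2 fold change -4.89 ± 0.50, adjusted p = 3.79e-07), with 126 ± 18.8 CPM (SD, n = 4) in healthy cells. Acute libraries were above and chronic ones below the healthy level, and chronic replicate 1 was the highest of its group. Rspo3, Notch4 and Fzd5 of the Wnt, hedgehog and Notch list were lower as well. Rspo3, the R-spondin that maintains Wnt signalling around the central vein, was at 662, 643 and 593 CPM in acute 24 h and 217, 189.8, 214 and 150.01 CPM in chronic 24 h (log2 fold change -1.72 ± 0.17, adjusted p = 2.53e-07). Acute 24 h lay at a log2 fold change of 0.16 from healthy cells and chronic 24 h at -1.56.

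Of 38 genes of stellate cell quiescence, 10 (26.3%) were lower and 2 (5.26%) higher, beside 3.05% and 10.9% of all genes. The median was -0.76. Egfem1, an EGF-like membrane protein, was at 71.3, 67.8 and 68.6 CPM in acute 24 h and 2.70, 3.02, 3.24 and 4.8002 CPM in chronic 24 h (log2 fold change -4.31 ± 0.29, adjusted p = 1.81e-09). Ntm, the adhesion molecule neurotrimin, was at 57.3, 64.9 and 46.0 CPM in acute 24 h and 5.40, 6.59, 8.33 and 5.76 CPM in chronic 24 h (log2 fold change -3.10 ± 0.28, adjusted p = 1.18e-07). Angptl6 was at 111, 159 and 92.0 CPM in acute 24 h and 51.4, 28.7, 33.0 and 29.4 CPM in chronic 24 h (log2 fold change -1.76 ± 0.36, adjusted p = 9.45e-04). In these 3 genes the acute libraries already lay below healthy cells, by log2 fold changes of -0.97, -1.48 and -3.53. The chronic libraries lay further below, at -5.28, -4.58 and -5.29. Rgs5, a pericyte regulator of G protein signalling, was at 1849.6, 1971 and 1967 CPM in acute 24 h and 687, 675, 954 and 780.4 CPM in chronic 24 h (log2 fold change -1.32 ± 0.26, adjusted p = 8.28e-04), without a call with the scores as terms (-1.12). Ngfr, the low-affinity nerve growth factor receptor, did not pass the test at 24.9, 64.8 and 87.8 CPM in acute 24 h and 30.7, 31.2, 26.2 and 35.4 CPM in chronic 24 h (log2 fold change -0.94 ± 0.43, adjusted p = 0.122). Without acute replicate 1 Ngfr was called lower (-1.30). Pparg, a lipogenic factor counted among quiescence genes and also used by macrophages, was higher, from 0, 0.521 and 0.439 to 5.996, 10.2, 0.702 and 2.64 CPM. Its log2 fold change went from 3.86 to -0.091 with the scores as terms, and it was not called in libraries of at least 10 M counts (2.33).

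Retinoid and lipid genes were divided, with 6 of 28 (21.4%) higher and 3 (10.7%) lower, beside 10.9% and 3.05% of all genes. The median was 0.45, or 0.38 with genes at their bound. Dhrs3, which reduces retinal back to retinol, was at 19.8, 25.6 and 24.0 CPM in acute 24 h and 318, 237, 179 and 244 CPM in chronic 24 h (log2 fold change 3.40 ± 0.35, adjusted p = 3.51e-07). Aldh1a1, which oxidises retinal, was at 283, 256 and 227 CPM in acute 24 h and 118, 83.5, 97.3 and 84.2 CPM in chronic 24 h (log2 fold change -1.41 ± 0.17, adjusted p = 2.09e-06). Plin2, a lipid droplet coat protein, was at 783, 816 and 483 CPM in acute 24 h and 384, 304, 178 and 243 CPM in chronic 24 h (log2 fold change -1.33 ± 0.28, adjusted p = 0.00148). The fatty acid carriers Cd36 (4.02) and Fabp5 (3.83) and the retinol carrier Rbp4 (2.87) were higher but not called with the scores as terms, at 1.25, 0.86 and 0.42. Fabp5 (2.32) and Rbp4 (1.98) were also not called in libraries of at least 10 M counts.

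Cdkn1a (chr17:29090976-29100727), the p21 inhibitor of the cell cycle, was at 41.1, 346 and 33.9 CPM in acute 24 h and 7.49, 7.28, 3.24 and 4.16 CPM in chronic 24 h (log2 fold change -4.68 ± 0.82, adjusted p = 2.51e-04). Healthy cells held 10.2 ± 7.16 CPM (SD, n = 4). Acute replicate 2 was far above the others, and without it the log2 fold change was -2.77 and still called. The other p53 targets did not follow, as 5 of the 30 tested were higher and Cdkn1a was the 1 that was lower. These shares, 16.7% and 3.33%, stand beside 10.9% and 3.05% of all genes. Sesn1, a stress-induced sestrin, was at 12.2, 11.8 and 12.5 CPM in acute 24 h and 61.9, 48.9, 36.5 and 29.3 CPM in chronic 24 h (log2 fold change 1.86 ± 0.23, adjusted p = 3.52e-06). Pmaip1 (2.99 ± 0.47) and Perp (3.46 ± 0.82) were also higher, and Eda2r held no more than 3 counts in any acute library. Pmaip1 (1.13) and Eda2r lost their calls with the scores as terms, and Eda2r did so without acute replicate 1 and in libraries of at least 10 M counts. Rasd1, a glucocorticoid-induced small GTPase, was at 206, 164 and 136 CPM in acute 24 h and 22.6, 20.7, 15.6 and 12.8 CPM in chronic 24 h (log2 fold change -3.24 ± 0.54, adjusted p = 1.43e-04). Tmem100, a target of endothelial BMP signalling, was at 28.2, 64.0 and 38.7 CPM in acute 24 h and 13.2, 3.02, 1.75 and 1.84 CPM in chronic 24 h (log2 fold change -3.18 ± 0.52, adjusted p = 1.17e-04). For both, chronic 24 h was near healthy cells, with log2 fold changes of 0.65 and -0.76. Syt12 (-3.52 ± 0.42) and the NKG2D ligand Raet1d (-3.21 ± 0.28) completed the named genes of this kind, and 2 of the 12 lowest were gene models without a symbol of known function.

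The metallothioneins, which bind zinc and copper and answer to metal and oxidative stress, fell together. Mt1 was at 3885, 2436 and 1732 CPM in acute 24 h and 388, 235, 421 and 232 CPM in chronic 24 h (log2 fold change -3.07 ± 0.36, adjusted p = 2.44e-06). Healthy libraries were at 237 ± 92.1 CPM (SD, n = 4), so chronic 24 h was within reach of the healthy level. Mt2 was at 1779, 923 and 805 CPM in acute 24 h and 153, 71.7, 99.5 and 65.9 CPM in chronic 24 h (log2 fold change -3.58 ± 1.03, adjusted p = 0.0149), and chronic 24 h stayed above the healthy 11.6 ± 15.6 CPM (SD, n = 4). Acute replicate 1 was the highest library of both, and Mt2 lost its call without it (range -3.89 to -3.14), in libraries of at least 10 M counts (-3.86) and with the scores as terms (-3.60). The remaining antioxidant genes did not share this. Of 30 on the NRF2 and metallothionein list, the other calls were Abcc4 (2.33 ± 0.49) and Gstm3, both higher, Gstm3 with no acute count. Abcc4 was not called with the scores as terms (2.34). The call of Gstm3 was lost without any 1 of the acute libraries, without chronic replicate 1 or 2, with the replicate block, a depth term or the scores as terms, without a filter on low counts and in libraries of at least 10 M counts.

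The promoters of both metallothioneins are shown since the genes lie side by side on chromosome 8 and fell together (Mt1 chr8:94178839-94179138 and Mt2 chr8:94172368-94172667, plus strand, RefSeq on GRCm38.p6). The metal response element core, TGCACNC or TGCGCNC on either strand, is in capitals and occurred 3 times in Mt1 and 4 times in Mt2. At least 1 such match was present in 25.7% of the 32851 windows.
Mt1: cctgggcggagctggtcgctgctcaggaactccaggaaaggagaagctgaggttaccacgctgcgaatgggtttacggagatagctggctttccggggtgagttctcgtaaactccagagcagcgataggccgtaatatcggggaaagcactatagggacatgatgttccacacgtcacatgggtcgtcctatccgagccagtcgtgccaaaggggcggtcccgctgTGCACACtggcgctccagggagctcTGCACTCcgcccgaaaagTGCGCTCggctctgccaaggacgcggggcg
Mt2: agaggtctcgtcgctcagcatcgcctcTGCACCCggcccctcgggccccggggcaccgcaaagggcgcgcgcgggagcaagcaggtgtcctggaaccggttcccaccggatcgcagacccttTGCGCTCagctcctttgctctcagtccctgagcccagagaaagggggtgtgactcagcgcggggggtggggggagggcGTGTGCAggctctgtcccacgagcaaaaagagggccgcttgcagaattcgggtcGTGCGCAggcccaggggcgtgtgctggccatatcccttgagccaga

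Of 42 ribosome biogenesis genes, 0 were higher and 3 (7.14%) lower (Rrp9, Polr1e and Gpatch4), with a median of -0.55. Of 51 cytosolic ribosomal proteins, 0 were higher and 5 (9.80%) lower, with a median of -0.49, beside 3.05% of all genes. In libraries of at least 10 M counts 1 and 2 were lower, and with the scores as terms 4 and 1. With no fold minimum 14 and 7 passed as lower. Polr1e, a subunit of RNA polymerase I, was at 15.7, 13.5 and 12.2 CPM in acute 24 h and 4.20, 5.35, 7.45 and 6.64 CPM in chronic 24 h (log2 fold change -1.22 ± 0.33, adjusted p = 0.0103). Rpl10a was at 58.7, 58.2 and 60.8 CPM in acute 24 h and 15.3, 24.2, 14.5 and 15.1 CPM in chronic 24 h (log2 fold change -1.78 ± 0.49, adjusted p = 0.0111). Rplp0 was at 355, 206 and 229 CPM in acute 24 h and 57.3, 164, 172 and 114 CPM in chronic 24 h (log2 fold change -1.05 ± 0.38, adjusted p = 0.0474). It lost its call without acute replicate 1, 2 or 3 or chronic replicate 1 or 4 (range -1.24 to -0.78). Gpatch4, Rrp9, Rps12, Rps4x and Tubg1 each lost the call in at least 2 such fits, with ranges of -1.24 to -0.98, -2.03 to -1.28, -1.41 to -1.05, -2.96 to -1.88 and -1.23 to -0.88. Rpl32 (-4.20 ± 0.98), Rps4x (-2.27 ± 0.79) and Rps12 (-1.21 ± 0.38) have near-identical pseudogene copies with which reads may be shared, as have ribosomal protein genes in general. Their values are uncertain. Rpl32 (-4.19), Polr1e (-1.38), Rplp0, Gpatch4, Rps12, Rps4x, Rrp9 and Tubg1 were not called with the scores as terms. Polr1e (-1.004), Rplp0, Rpl10a (-2.03), Gpatch4, Rps12, Rrp9 and Tubg1 were not called in libraries of at least 10 M counts. Of 12 tubulins, Tubb4b was lower at 806, 856 and 689 CPM in acute 24 h and 266, 239.9, 277 and 327 CPM in chronic 24 h (log2 fold change -1.50 ± 0.17, adjusted p = 1.09e-06). Tubg1 was also lower (-1.04 ± 0.28). Tuba1c, at 0.804 ± 0.301 CPM (SD, n = 4) in healthy cells, did not pass the test at 477, 539 and 450.2 CPM in acute 24 h and 277, 319.8, 386 and 411 CPM in chronic 24 h (log2 fold change -0.49 ± 0.93, adjusted p = 0.757). Its groups did not overlap, and its SE, which rests on all 27 libraries, is wider than the spread within either.

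The remaining lists held few calls, to be read beside the 10.9% higher and 3.05% lower of all genes. Of 37 genes of ATF4 stress and amino acid supply, 3 (8.11%) were higher (Pycr1 2.16, Slc1a4 1.69, Aldh18a1 1.23) and 1 (2.70%) lower (Slc7a1 -1.25). The higher ones serve proline and neutral amino acid supply. Of 36 endoplasmic reticulum folding genes, 2 (5.56%) were higher, Pdia4 at 1.40 ± 0.21 and Pdia5 at 1.03 ± 0.31. Of 26 glycolysis and hypoxia genes, 4 (15.4%) were higher and 1 (3.85%) lower. Hk2, the inducible hexokinase, was at 7.92, 5.56 and 7.11 CPM in acute 24 h and 54.4, 61.5, 98.4 and 86.2 CPM in chronic 24 h (log2 fold change 3.45 ± 0.26, adjusted p = 8.36e-09). Egln3 and Pdk1 had log2 fold changes of 3.46 and 1.38. The glucose transporter Slc2a1 was lower at 241, 194 and 227 CPM in acute 24 h and 83.3, 103, 84.5 and 117 CPM in chronic 24 h (log2 fold change -1.19 ± 0.15, adjusted p = 7.82e-06). On the cholesterol synthesis list, Dhcr7 was higher (1.70) and Pmvk lower (-1.03). Of 32 interferon-stimulated genes, 1 (3.125%) was higher (Oas3 2.85, and -0.68 with the scores as terms) and 3 (9.375%) lower (Usp18 -1.75, Isg15 -1.36, Bst2 -1.22). Leaving out single libraries ended the calls of Pycr1 (range 1.73 to 2.77), Pdia5 (0.76 to 1.26), Pdk1 (1.07 to 1.62), Pmvk (-1.22 to -0.91) and Bst2 (-1.35 to -1.16), in each case acute replicate 1, 2 or 3 among them. The calls of Egln3 (3.35), Pdk1 (1.31), Slc7a1 (-0.67), Pycr1 (2.65) and Bst2 (-1.61) were lost with the scores as terms. Those of Slc7a1 (-1.06), Pdk1 (1.14), Pmvk (-0.95) and Oas3 (1.58) were lost in libraries of at least 10 M counts. In chronic libraries of at least 10 M counts alone, 8 interferon genes were lower.

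Of 24 YAP and TAZ targets, 5 (20.8%) were higher (with Wwc1 2.88 and Ccdc80 1.64) and 3 (12.5%) lower. The lower ones were led by Nt5e, the ectonucleotidase CD73 of stellate cells, at 683, 496 and 689 CPM in acute 24 h and 69.4, 101, 110.3 and 138 CPM in chronic 24 h (log2 fold change -2.57 ± 0.26, adjusted p = 3.25e-07). Ankrd1, a YAP target in muscle and stellate cells, overlapped at 119.7, 51.0 and 96.0 CPM in acute 24 h and 8.24, 28.4, 83.8 and 42.7 CPM in chronic 24 h (log2 fold change -1.12 ± 0.66, adjusted p = 0.247). Of 18 clock genes, 3 (16.7%) were higher (Bhlhe41 4.81, Dbp 3.57 and Nr1d1) and 2 (11.1%) lower (Per1 -1.56 and Cry1). Nr1d1, a repressor of the clock, was at 23.9, 18.7 and 21.9 CPM in acute 24 h and 59.5, 50.9, 75.6 and 148 CPM in chronic 24 h (log2 fold change 1.96 ± 0.45, adjusted p = 0.00297). The hour of day at collection is not given in the sources used here. Of 46 DNA replication and mitosis genes, 4 (8.70%) were higher and 1 (2.17%) lower, no more than the 10.9% and 3.05% of all genes. E2f1, a driver of S phase genes, was at 1.69, 0.868 and 1.05 CPM in acute 24 h and 5.25, 11.3, 4.91 and 8.40 CPM in chronic 24 h (log2 fold change 2.62 ± 0.42, adjusted p = 9.21e-05). Mcm6, a helicase subunit, was at 4.27, 3.82 and 1.84 CPM in acute 24 h and 7.49, 10.6, 5.44 and 10.6 CPM in chronic 24 h (log2 fold change 1.36 ± 0.32, adjusted p = 0.00338), and Tk1 had a log2 fold change of 1.73. Ccnb2 had no count in chronic 24 h and at most 1.42 CPM in acute 24 h. The calls of Bhlhe41 (without acute replicate 2 or 3) and Ccnb2 (without acute replicate 1) rested on single libraries. E2f1 (1.70), Mcm6 (0.82), Tk1 (0.66), Wwc1 (1.06), Per1 (-1.47), Bhlhe41 (5.50) and Ccnb2 were not called with the scores as terms. Tk1 (1.26), Wwc1 (2.504), Bhlhe41 (4.01) and Ccnb2 were not called in libraries of at least 10 M counts. Ch25h, which makes 25-hydroxycholesterol, overlapped at 211, 161 and 236 CPM in acute 24 h and 233, 414, 403 and 199.8 CPM in chronic 24 h (log2 fold change 0.62 ± 0.38, adjusted p = 0.261). It was far above its healthy level of 1.89 ± 0.529 CPM (SD, n = 4) in both groups.

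The study chose a fibrogenic gene program on chronic libraries of this series. It chose an initiatory one as genes raised both in acute 24 h libraries and in cultured stellate cells, which are not analysed here. Their directions here are therefore not independent evidence. Of 172 fibrogenic genes tested, 72 (41.9%) were higher and 9 (5.23%) lower in chronic 24 h (median 1.10). The list's median against healthy cells was 2.73 in acute 24 h and 3.97 in chronic 24 h. The 9 lower genes included Il11, Bdkrb2, Fosl1 and Tnfrsf12a. Of 72 initiatory genes tested, 6 were higher and 12 lower (median -0.47), with medians against healthy cells of 3.12 in acute 24 h and 2.74 in chronic 24 h. Cdkn1a, Bdkrb2 and Il11 were among the lower genes and Tnc, Thbs1 and Tnfaip6 among the higher ones. The other 54 of 72 initiatory genes had no call. The shares called, 8.33% higher and 16.7% lower, stand beside 10.9% and 3.05% of all genes.

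At 72 h, chronic libraries set against acute ones gave 959 higher (5.11%) and 752 lower (4.01%) genes. Of the 2036 genes higher at 24 h, 545 were also higher at 72 h (26.8% of the 24 h list and 56.8% of the 72 h list) and 62 were lower. Of the 573 genes lower at 24 h, 60 were also lower at 72 h (10.5% and 7.98%) and 6 were higher. Tested as the difference between the contrasts, 1212 genes (6.46%) had a higher value at 24 h than at 72 h and 427 (2.28%) a lower one, with a median over all genes of 0.09.

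Acta2 had the largest such difference among genes of moderate level. It was higher in chronic 24 h but lower in chronic 72 h than in the acute libraries of the same hour (72 h log2 fold change -4.91, adjusted p = 2.11e-04). The difference between the hours was 7.63 ± 1.16, adjusted p = 1.78e-04. Fbln2 was next, with -1.23 at 72 h and a difference of 7.14 ± 0.77, adjusted p = 3.92e-06. Ccn5 followed with -3.49 at 72 h and a difference of 6.85 ± 0.69, adjusted p = 2.27e-06. For Nrep the value at 72 h was 0.53 and the difference 6.82 ± 0.91, adjusted p = 4.45e-05, and for Vegfd they were -1.64 and 5.84 ± 0.81, adjusted p = 5.88e-05. In the contractile list 16 of 32 genes were lower at 72 h and 0 higher, and 15 had a higher value at 24 h. Tagln did not differ by the test at 24 h and was lower at 72 h (-3.11, adjusted p = 1.53e-04). Of 46 replication genes 42 were lower at 72 h, beside 1 at 24 h, and 31 differed between the hours. Collagen chains had a median of 0.26 at 72 h, with 8 higher and 1 lower, and 14 of 26 differed between the hours in the higher direction.

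A further group kept its difference. Fndc5 (5.14 at 72 h), Mmp2 (3.05), C4b (4.38) and Igfbp4 (2.84) were higher in the chronic libraries at both hours. The difference between the hours did not pass the test for Fndc5 (0.20 ± 0.56, adjusted p = 0.889), Mmp2 (0.12 ± 0.33, adjusted p = 0.888), C4b (-0.47 ± 0.43, adjusted p = 0.559) or Igfbp4 (-0.45 ± 0.36, adjusted p = 0.496). In the opposite direction, Hhip, Rasd1, Tmem100, Syt12 and Mt1 were called lower at 24 h and not at 72 h, where their log2 fold changes were -0.26, 1.38, 0.90, 0.52 and 0.16. The differences between the hours were -4.63 ± 0.64, adjusted p = 5.49e-05 for Hhip and -4.62 ± 0.74, adjusted p = 2.66e-04 for Rasd1. They were -4.08 ± 0.70, adjusted p = 5.07e-04 for Tmem100, -4.04 ± 0.55, adjusted p = 5.49e-05 for Syt12 and -3.24 ± 0.49, adjusted p = 1.33e-04 for Mt1. Inmt, an amine methyltransferase, was at 106, 77.3 and 99.7 CPM in acute 24 h and 120.2, 132, 45.7 and 46.3 CPM in chronic 24 h (log2 fold change -0.14 ± 0.34, adjusted p = 0.819). In the main fit Inmt passed the test at 72 h alone (4.44, adjusted p = 3.70e-08), with a difference between the hours of -4.57 ± 0.47, adjusted p = 2.82e-06. In libraries of at least 10 M counts it was called lower at 24 h (-1.07). Pan-macrophage markers were called higher at 72 h for 15 of 17 genes, so these cells' transcripts moved with the comparison at that hour as well.

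**Figure D5:**
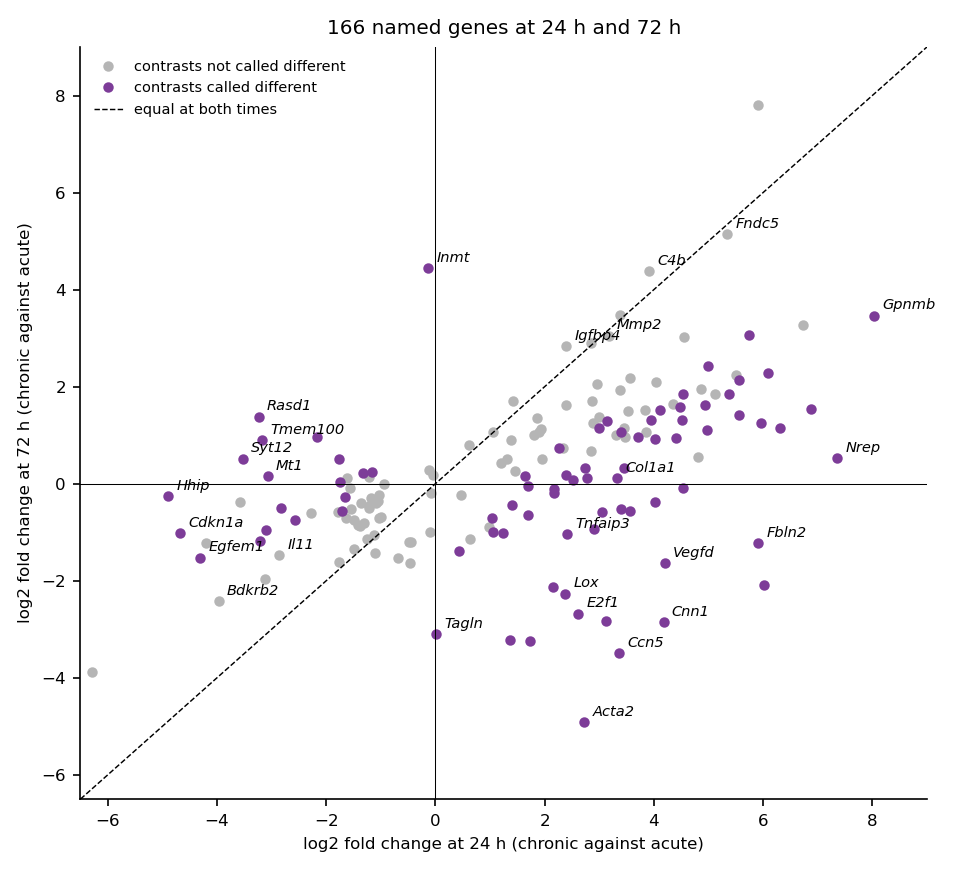
Log2 fold change of chronic against acute at 24 h (horizontal) and at 72 h (vertical) for the 166 genes named in the text. Purple genes had a difference between the hours that passed the test, grey genes did not, and the dashed line marks equal values. Acta2 lies lowest, at 2.72 and -4.91, and Fndc5, Mmp2 and C4b lie near the line.

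Exons of another annotated gene overlapped 550 of the higher and 204 of the lower genes, and 49 of the 166 named here, Hhip, Cdkn1a, Mt2, Fn1 and Lox among them. Whether counting used the strand is not stated, so reads of such pairs cannot be told apart.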

How the data were processed

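Stellate cell RNA was sequenced single-end. Trimmed reads were aligned by the authors to GRCm38.p6 with STAR, and StringTie was used for assembly. The tool versions, the annotation release, the use of strand and the step from assembly to counts are not given in the sources used here. The deposited table holds raw counts per Ensembl gene for 53379 genes in 27 libraries, unnormalized and unpooled, of which 16198 genes had no count; symbols, positions and exon overlaps came from GENCODE M21 (53274 IDs matched, 105 did not and stayed without a name).

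From these counts, 1 edgeR (version 4.0.16) quasi-likelihood model of all 27 libraries was fitted with TMM scaling, robust dispersions and edgeR's own low-count filter by group (18758 genes kept), where the study had used DESeq2 without naming the samples in its fit. CPM values are TMM-scaled, and log2 CPM used a prior count of 2. Contrasts were chronic against acute at 24 h, the same at 72 h, and their difference. On data simulated for the 24 h contrast, 200 of 18758 genes were changed by 2 on the log2 scale, all with a mean above 1 CPM. Of the changed genes 70.5% were called, and 6 others were. Recovery of genes at lower levels was not tested. The rule for named genes took the 12 highest and 12 lowest called genes of mean log2 CPM of at least 3 without overlap, the 4 called members of each list with the largest change, a set of stellate cell genes, and the 5 genes in each direction that differed most between 24 h and 72 h. A few genes that the rule named are not reported here. The members, gene lists and rules were chosen with earlier results of these data known. Alternatives were other scalings, filters, thresholds, DESeq2 (version 1.42.0), the 7 libraries alone, a replicate block, depth, each library left out, and, added after seeing the data, pan-macrophage and hepatocyte marker scores as terms. Replicate numbers did not pair the samples: deviations of same-numbered libraries correlated at -0.038, 0.051 and -0.0049. P-values rest on the spread within groups over all 27 libraries, which for some genes exceeds that of the 7 compared ones. Intervals of counting error were not computed, and such error weighs most on genes with few counts.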

Additional observations from a re-analysis of the deposited data

Results flagged for a closer look

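The difference between chronic and acute cells differed between 24 h and 72 h, by the edgeR contrast of the contrasts, for 80 of the 166 named genes. Many of these genes were named for large changes at 24 h or for this difference itself, so a high share was set by the choice. Over all genes tested, 6.46% had a higher and 2.28% a lower value at 24 h. The values that follow are log2 differences at 24 h minus those at 72 h. In 61 genes the value was higher at 24 h. Among matrix and adhesion genes these were Has2 8.11, Fbln2 7.14, Ccn5 6.85, Nrep 6.82, P4ha3 5.96, Col4a5 5.33, Ltbp2 5.17, Lox 4.64, Adam8 4.62, Ncam1 4.14, Col6a3 3.64, Col1a1 3.21, Col8a2 2.90, Serpine2 2.67, Tnc 2.66, Mmp13 2.63, Fmod 2.603, Col15a1 2.56, Col1a2 2.44, Col3a1 2.35, Fn1 2.29, Kdelr3 2.04 and Vcan 1.82. Among contractile genes these were Acta2 7.63, Cnn1 7.03, Myh11 3.84, Tagln 3.12 and Synpo2 2.42. Among signalling genes and ligands these were Vegfd 5.84, Fzd2 4.40, Gdf6 3.93, Igf1 2.74, Wnt5a 2.70, Sema5a 2.23, Pdgfd 1.84 and Tgfb2 1.53. Among immune and complement genes these were Apcs 4.70, Gpnmb 4.57, Tnf 3.85, Ighm 3.82, Cd83 3.53, C3ar1 3.45, Tnfaip3 3.45, C3 3.42, Il1rn 3.30, Osm 3.22, Cd36 3.09 and Cx3cl1 1.85. The other genes with a higher value were E2f1 5.30, Tk1 4.97, Mcm6 4.58, Pycr1 4.28, Dbp 4.13, Hk2 3.14, Dhrs3 2.33, Slc1a4 2.33, Aldh18a1 2.24, Pdia4 1.84, Pdia5 1.74, Dhcr7 1.74 and Ccdc80 1.47. In 19 genes the value was lower at 24 h, namely Hhip -4.63, Rasd1 -4.62, Inmt -4.57, Tmem100 -4.08, Syt12 -4.04, Cdkn1a -3.67, Mt1 -3.24, Ccl11 -3.13, Egfem1 -2.79, Id1 -2.34, Angptl6 -2.27, Ntm -2.13, Raet1d -2.03, Nt5e -1.83, Usp18 -1.79, Plin2 -1.55, Inhba -1.41, Ecm1 -1.39 and Rspo3 -1.16.

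Single chronic 24 h libraries stood apart from the other 3 by Dixon's test for several values, a test that flags about 1 in 20 groups by chance. The highest library was set apart, in CPM, for Ighm 93.1, Hhip 22.8, Tmem100 13.2, Col8a2 66.4, Tnfaip3 394, Rpl10a 24.2, Ccl5 7.34 and Dhcr7 41.5, and the lowest for Col15a1 99.7, Ccn5 17.3 and Pdk1 3.24. Among the marker sums, lipid-associated macrophage markers reached 5597 CPM and B and plasma cell markers reached 120.1 CPM in 1 chronic library each.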

How the results depend on the processing

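The counts of higher and lower genes at 24 h stayed within 1.5 times of 2036 and 573 under other scalings, filters, an adjusted p below 0.1, DESeq2 (2348 and 642), the 7 libraries alone (1685 and 563), libraries of at least 10 M counts (1389 and 556) and a depth term (1810 and 626). Testing against a 2-fold minimum left 950 higher and 105 lower genes, leaving out the fold minimum gave 1373 lower genes, and the marker scores as terms gave 1293 higher genes. Without 1 library at a time, the counts ran from 1508 to 2069 higher and 418 to 642 lower, and for the difference between 24 h and 72 h from 836 to 1289 and from 286 to 589. With the replicate block, which is no pairing here, 1948 genes were higher and 572 lower, and 1218 and 442 differed between the hours.

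With the marker scores as terms the log2 fold changes of Igfbp2, Oas3 and Pparg turned to -0.0059, -0.68 and -0.091, and no other called gene among those named changed direction in a refit. Genes without a call and near 0, such as Tagln and Myc, changed sign in several. Of 166 named genes 148 were called, and 107 of these kept the call in every refit at the same thresholds (other scalings, filters, samples, terms and DESeq2) but that with the marker scores. The other thresholds were not applied to named genes. As terms, the marker scores ended 61 calls without a change of sign and those of the 3 genes that turned, and 33 were lost in libraries of at least 10 M counts. The cause of these losses was not tested. The latter fit held fewer libraries, and the scores did not overlap between acute 24 h and chronic 24 h. With the scores as terms some log2 fold changes shrank (Tnf from 4.96 to 0.92) and others did not (Tnfrsf12a from -1.77 to -2.60). Depth limits genes near 1 CPM, where 1 library held 7 to 13 counts.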
